A study of Mus musculus with 8 samples.

Results

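The transcriptome described here is that of differentiated 3T3-L1 adipocytes, a mouse line that turns from fibroblast-like cells into fat-storing cells in culture, 48 h after transfection with a nontargeting siRNA (siNTC). It comprises 4 of the 8 libraries in the series, chosen by their label, and all 18088 genes of the count table. The cells were wild type and received siRNA at 1.25 nM per square centimeter, as did the other group of the study, whose siRNA targeted the kinase ERK3 and which is not analysed here. 3T3-L1 is a single cell line, and the labels do not say whether the 4 libraries came from separate differentiations or dishes, so the spread between them may be partly technical. Poly(A) RNA was selected, and the library kit keeps no record of which strand a read came from. The table kept a gene when it was above 1 CPM (the count of the gene over the sum of gene counts of the library, times 1000000) in at least 4 of the 8 libraries, so silent genes are missing from it and the lowest levels are those of genes that passed in the other group.

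White adipocytes take up or make fatty acids, join them to a glycerol backbone as triglyceride, and keep the triglyceride in a large lipid droplet coated by perilipins. Lipases at the droplet surface release the fatty acids again when beta-adrenergic receptors raise cyclic AMP, while insulin favors storage. The cells also secrete hormones such as adiponectin. During differentiation the nuclear receptor PPARγ and the factor C/EBPα switch on most of the genes of these tasks.

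The 4 libraries had 9854522, 9861042, 9920350 and 9905043 gene counts in replicates 1 to 4. Their totals therefore differed by less than 1%. Of the 18088 genes, 16884 reached 1 CPM in all 4 libraries, 193 were below 1 CPM in all 4, and 8 had no count. The genes with no count are among those kept because of the other group. The libraries differed by more than sampling noise in each of the 6 pairs, with a mean chi-square per gene of 3.38 to 8.30, where sampling alone gives about 1, so no pair agreed within sampling noise. Separate preparations of the same cells would also differ by more than this noise.

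A few transcripts held a large share of the counts. The most abundant gene alone took 5.49% ± 0.272 (SD, n = 4 libraries), the 10 most abundant 12.5% ± 0.376, and the 100 most abundant 28.4% ± 0.433. Between 770 and 822 genes per library made up 50% of the counts, and between 6944 and 7032 genes made up 90%. By mean level, 3 genes stood at 10000 CPM or more and held 8.60% of the counts. Another 69 genes between 1000 and 10000 CPM held 17.4%, and 1718 genes between 100 and 1000 CPM held 37.1%. The largest class, 9366 genes between 10 and 100 CPM, held 34.15%, and the 6409 genes between 1 and 10 CPM held 2.69%. The median gene had 17.1 CPM.

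The adipocyte markers stood at the head of this distribution. Scd1, stearoyl-CoA desaturase 1, which makes monounsaturated fatty acids, was the most abundant gene of all. Its counts in replicates 1 to 4 were 556349, 501491, 559481 and 554499, or 54923 CPM ± 2719.5 (SD, n = 4). Replicate 2 was the lowest, and the other 3 lay close together. Lpl, lipoprotein lipase, which frees fatty acids from circulating lipoproteins, ranked next but one with 117195, 112353, 91614 and 107569 counts (10845 CPM ± 1153). Here replicate 3 was the lowest.

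Fabp4, the adipocyte fatty acid binding protein, ranked sixth with 52523, 47391, 50061 and 54890 counts (5181 CPM ± 322). Adipoq, which encodes the hormone adiponectin, ranked seventh with 48741, 45040, 52677 and 50709 counts (4986 CPM ± 316). The ranges of Fabp4 and Adipoq overlapped, so their order in CPM did not hold beyond their spread. Plin1, the droplet coat protein that controls access of lipases, ranked 48th with 18336, 17826, 18341 and 17924 counts (1832 CPM ± 27.1), the smallest relative spread of the 5 markers (CV, the SD as a percent of the mean, 1.48%). Together the 5 markers held 7.78% ± 0.309 of the counts. In GENCODE M21, on the mm10 build, Scd1 (ENSMUSG00000037071) lies on the minus strand of chromosome 19 from 44394455 to 44407879, and Lpl (ENSMUSG00000015568) on the plus strand of chromosome 8 from 68880491 to 68907448. Fabp4 (ENSMUSG00000062515) lies on the minus strand of chromosome 3 from 10204088 to 10208576, Adipoq (ENSMUSG00000022878) on the plus strand of chromosome 16 from 23146536 to 23158028, and Plin1 (ENSMUSG00000030546) on the minus strand of chromosome 7 from 79720218 to 79732903. The span of none of these 5 genes overlapped another gene of the table. Chromosome 19 held 10.8% of the counts, the most of any chromosome, and 5.29% without Scd1.

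Counts favor long transcripts, so levels of different genes were compared as TPM, in which counts are divided by the length of all annotated exons of the gene and scaled to a sum of 1000000. The pairs of inner and outer genes described below show that counts may include introns, which this length leaves out. TPM, its ranks and its folds may then be too high for genes with long introns, which was not tested. Among nuclear protein-coding genes Scd1 still ranked first, at 23119 TPM ± 1096 (SD, n = 4). Adipoq, a short transcript, moved to the second place with 7433 TPM ± 420, followed by Cfd, which encodes the complement protease adipsin, with 6240.2 TPM, and Cidec, which fuses lipid droplets, with 3465 TPM. Fabp4 stood at 2376.5 TPM ± 140 and Lpl at 2133 TPM ± 245. The value of Fabp4 depends on the length used, since its annotation includes a transcript with a retained intron. The annotated exon length used for the main value was 4489 bases. Over its longest protein-coding transcript Fabp4 stood at 10147 TPM, above the main value of Adipoq. The second place of Adipoq therefore rests on the main length.

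**Figure D1:**
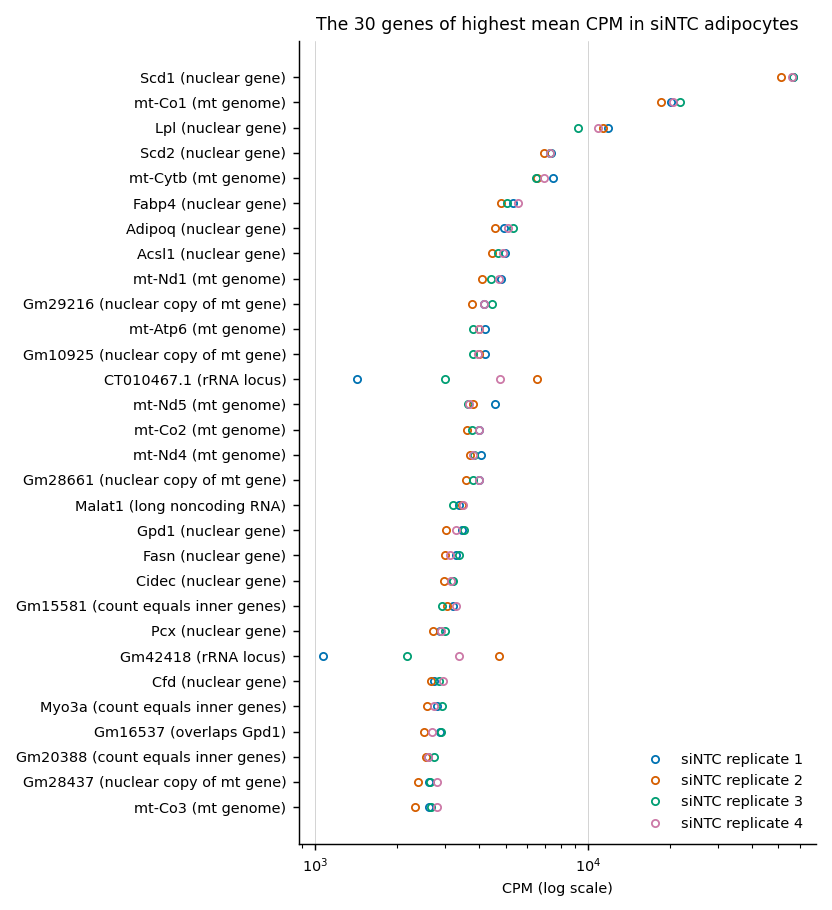
CPM (log scale) of the 30 genes of highest mean CPM, with 1 open circle for each of the 4 siNTC libraries and the kind of gene in parentheses. Scd1 lies apart at 54923 CPM, and the 2 genes of the rRNA locus spread far more widely over the libraries than all other genes shown.

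The list of 23 adipocyte genes was measured completely and held 9.95% ± 0.385 of the counts (9.40% to 10.3% over the libraries). Of its members, 20 were at 100 CPM or more. The lowest were Lep, which encodes the satiety hormone leptin, at 12.5 CPM ± 1.41, Car3, a carbonic anhydrase, at 21.02 CPM ± 2.57, and the glycerol channel gene Aqp7 at 51.3 CPM ± 2.59. Markers of most other cell types were few and low. Of 14 macrophage and leukocyte markers, 4 were measured: Csf1r at 6.90 CPM, Cd14 at 4.27, Cd68 at 0.810 and Cd74 at 0.405. The endothelial list had 1 of 8 markers measured, Pecam1 at 0.885 CPM. Acta1 was the only measured member of 7 muscle markers (4.96 CPM), Krt18 the only one of 6 epithelial markers (1.62 CPM), and none of 5 hepatocyte markers was measured here. Of 6 neuron and glia markers, Mbp stood at 4.20 CPM and Snap25 at 1.19. The smooth muscle and pericyte list was higher, with 4 of 6 markers measured and 0.00593% of the counts: Des stood at 28.7 CPM, Myh11 at 16.0, Acta2 at 10.2 and Tagln at 4.40. In bulk RNA, fewer cells of a type and less RNA per cell cannot be told apart.

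Markers of precursor cells were present at levels near that of the median gene. Of 14 preadipocyte markers 9 were measured, with a median of 17.5 CPM against 17.1 CPM over all genes. Their sum was 0.0208% of the counts. The highest were Zfp423, a factor of committed preadipocytes, at 52.0 CPM ± 3.99, and Dlk1, a surface protein lost as fat cells mature, at 49.6 CPM ± 2.84. Both receptors for platelet-derived growth factor were lower, Pdgfrb at 36.2 CPM and Pdgfra at 17.5 CPM. Of 13 genes of brown and beige fat, 5 were measured. Ebf2 stood at 14.97 CPM, Cox8b at 12.5, Cox7a1 at 9.28, Ppargc1a at 2.96 and Cidea at 2.30, and Ucp1, the uncoupling protein of brown fat, was not measured here.

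**Figure D2:**
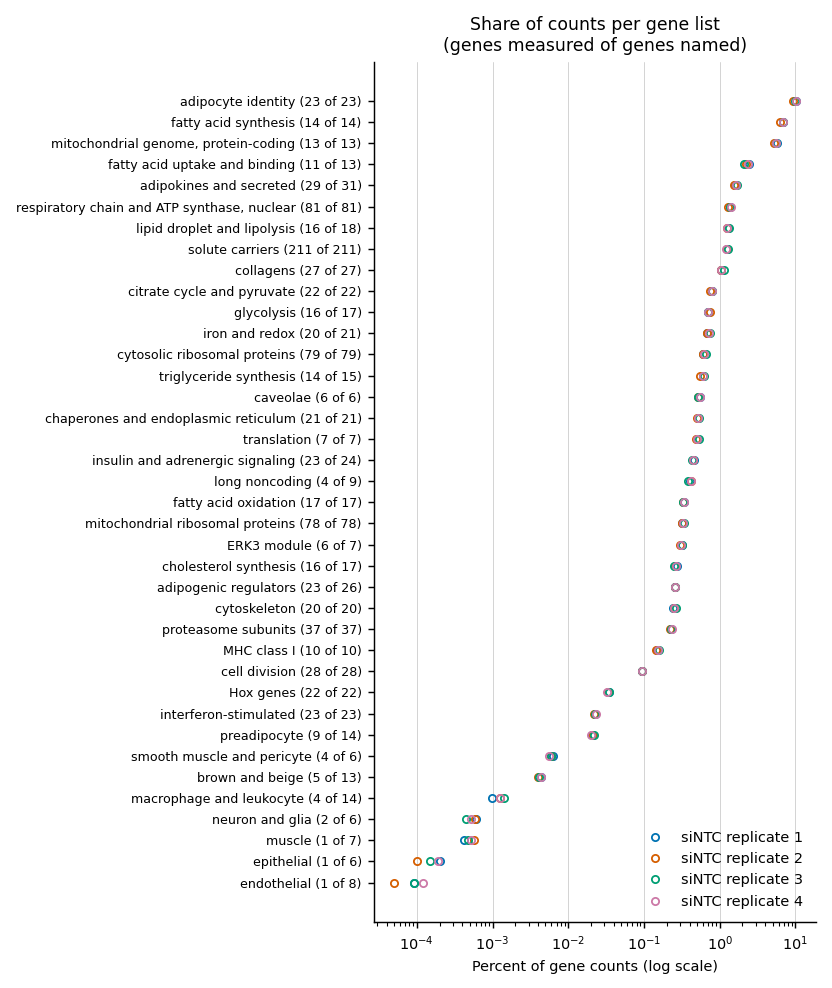
Percent of gene counts (log scale) of each gene list, with 1 open circle for each of the 4 siNTC libraries and the number of measured genes of those named in parentheses. The adipocyte list leads at 9.95%, the muscle, epithelial and endothelial lists stand at under 0.001%, and lists of more than a few counts are nearly equal in the 4 libraries.

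Genes of fatty acid synthesis held 6.75% ± 0.312 of the counts with all 14 members measured, most of it Scd1. Fasn, which builds palmitate, stood at 3193 CPM ± 165, Scd2 at 7199 CPM ± 187, and Acly, which supplies cytosolic acetyl-CoA, at 420.1 CPM ± 11.1. Pcx, pyruvate carboxylase, which feeds citrate formation, was the most abundant gene of the citrate cycle and pyruvate list at 2870 CPM ± 127. Acaca, the carboxylase that makes malonyl-CoA, was lower at 197 CPM, beside a listed pseudogene copy at 191 CPM that cannot be told apart from it, and the elongase Elovl6 and the factor Mlxipl stood at 4.25 and 2.58 CPM.

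For triglyceride assembly, Gpd1, which makes glycerol 3-phosphate, had the highest count of its list at 3329 CPM ± 227. The acyltransferases and phosphatases that follow were more even: Dgat2 at 417 CPM, Lpin1 at 403, Dgat1 at 367, Agpat2 at 292, and Gpat4 and Gpat3 at 167 each. Uptake and binding of fatty acids took 2.28% ± 0.146 of the counts, led by Lpl, Fabp4 and Acsl1, which links fatty acids to coenzyme A (4752 CPM ± 225). The scavenger receptor gene Cd36 stood at 859 CPM ± 94.6.

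Lipid droplet and lipolysis genes held 1.28% ± 0.0359 of the counts. Both main lipases were abundant, Pnpla2 (ATGL, which starts triglyceride breakdown) at 2238 CPM ± 115 and Lipe (hormone-sensitive lipase) at 1828 CPM ± 59.5. Lipe lies inside the span of 4732471J01Rik, which was at 1879.6 CPM. Of the count of this outer gene, 98.8% equals that of the genes inside it. The counts of Lipe and this outer gene cannot be told apart. The monoglyceride lipase Mgll was far lower at 25.1 CPM. Among their regulators, G0s2, an inhibitor of ATGL, stood at 492 CPM ± 3.04, and its activator Abhd5 at 178 CPM ± 12.9. G0s2 had 4867, 4811, 4883 and 4900 counts and a CV of 0.618%. It lies inside the span of Lamb3, a laminin gene of which 96.6% of the count equals that of the genes inside it.

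Fatty acid oxidation held 0.333% of the counts. Cpt1a, the entry step of long-chain fatty acids into mitochondria, stood at only 24.2 CPM, and its paralog Cpt1b at 2.78, while enzymes further on were higher, such as Hadha at 353 CPM and Acadm at 323. The citrate cycle was represented by Cs at 615 CPM and Sdha at 528. Of the 81 nuclear genes of the respiratory chain and ATP synthase, 40 were at 100 CPM or more, and together they held 1.36% ± 0.0555, with Atp5b at 2094 CPM and Atp5a1 at 939. The 13 protein-coding genes of the mitochondrial genome held 5.51% ± 0.253, led by mt-Co1 at 20277 CPM ± 1318.

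Among secreted products, Cfd followed Adipoq in count at 2795 CPM ± 125, and complement C3 stood at 2113 CPM ± 118. Retn (resistin) stood at 161 CPM, Angptl4, an inhibitor of lipoprotein lipase, at 215, and Lcn2 at 0.733. The 27 collagen genes held 1.06% ± 0.0452, with Col6a3 at 1963 CPM, Col4a1 at 1517, Col6a1 at 1413, Col6a2 at 1315 and Col3a1 at 1299. Caveolae, the membrane pits in which adipocytes are rich, were represented by Cav1 at 2399 CPM, Cavin1 at 1088 and Ehd2 at 865.

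Pparg and Cebpa, regulators of the program, stood well above the median gene (17.1 CPM). Both stood below Plin1 (1832 CPM), the lowest of the markers Scd1, Lpl, Fabp4, Adipoq and Plin1. Pparg stood at 567 CPM ± 16.0 and Cebpa at 532 CPM ± 22.0. The 17 measured activators of adipogenesis held 0.245% of the counts, and the 6 measured repressors 0.0114%. Of insulin signaling, Akt2 stood at 284 CPM, Irs1 at 244 and Insr at 239, and a copy of Akt2 was listed at 180.1 CPM. The genes of the study's own question were Mapk6, which encodes ERK3, at 562 CPM ± 16.6 (5642, 5540, 5344 and 5697 counts), Mapkapk5, which encodes its partner MK5, at 31.8 CPM ± 2.77 (326, 314, 341 and 277 counts), and Foxo1 at 64.6 CPM ± 1.94 (614, 627, 657 and 655 counts). Mapk6 ranked 149th of all genes, Foxo1 3123rd and Mapkapk5 6201st.

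Genes that mark dividing cells were low and their inhibitors higher. Of the 28 genes of the cell division list, the 12 mitosis genes together held 0.00506% of the counts, with Mki67 at 6.53 CPM, Top2a at 7.44 and Plk1 at 1.42. The 6 genes that hold the cycle back held 0.0768%, led by Cdkn2c at 351 CPM, Cdkn2a at 159.9 and Rb1 at 79.999 CPM. Interferon-stimulated genes were also low, and the 23 genes summed to 0.0226% of the counts. Of them, 10 were below 1 CPM, and Oas1a and Oas3 had no count in any siNTC library. Over all genes 2.89% had a mean below 1 CPM. Such genes passed the filter only with the help of libraries of the other group. Their low siNTC level is therefore partly selected by the filter.

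Paralogs within a family differed widely in TPM. Of 37 families with at least 2 measured members, the same member led in all 4 libraries in 36, the perilipins being the exception. In 12 families the leader held over 90% of the TPM of the family. Of the 67 pairs of neighbors in these orders, 4 overlapped in range. Cidec exceeded Cidea by 815-fold in mean TPM (3465 against 4.25), and the ranges of Cidea and Cideb overlapped. Gpd1 exceeded the mitochondrial Gpd2 by 214-fold, but the span of Gpd1 overlaps that of Gm16537, which was at 2743 CPM. Scd1 exceeded Scd2 by 8.52-fold (23119 against 2713 TPM), and Scd3 and Scd4 followed at 260.2 and 113.

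Plin1 and Plin4 could not be ranked, with 792 to 835 TPM in Plin1 and 745 to 814 in Plin4. This tie depended on the length used: over the longest transcript Plin1 stood at 1184 TPM and Plin4 at 693. Plin2 stood at 176 TPM ± 4.57 and Plin3 at 35.8 ± 1.23. Over all annotated exons Fabp4 exceeded Fabp5 by 11.9-fold, and Acsl1 exceeded Acsl3 by 22.9-fold. The fold of Fabp4 depends on the length used for it, as given above. A copy of Fabp5 was listed at 243 CPM beside 347 for Fabp5 itself. Over the longest protein-coding transcript Acsl1 stood at 2140.3 TPM and Acsl3 at 38.3, so the fold was larger with this length. Dgat2 and Dgat1, which both close triglyceride synthesis, were near each other at 279 TPM ± 4.89 and 247 TPM ± 9.29. Their order turned when the longest transcript was used as length.

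Of the glucose transporters, the insulin-regulated Slc2a4 stood at 149 TPM ± 5.38 and Slc2a1 at 56.8 ± 4.69. Slc2a3 followed at 32.3, of which 72.3% of the count equals that of Gm4482, a gene that lies inside it. Adrb3, the beta-adrenergic receptor typical of rodent fat, stood at 117 TPM ± 7.18, against 1.45 for Adrb1. The gene Gm45470 lies inside Adrb3 and its count equals 26.9% of the Adrb3 count. Insr exceeded Igf1r by 15.3-fold, and Pparg stood at 395 TPM ± 11.2 against 37.2 for Ppard and 2.77 for Ppara.

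Among the ERK kinases, the atypical member Mapk6 led with 173 TPM ± 5.93, followed by Mapk3 (ERK1) at 59.0 ± 4.42, and Mapk7 stood at 9.68 ± 0.902. The ranges of these genes did not overlap. Foxo4 at 19.6 TPM, Foxo1 at 15.3 and Foxo3 at 12.2 did not overlap either, although Foxo1 had the highest count of the family. Mapkapk2 stood at 30.2 TPM and Mapkapk5 at 20.5. Of the PKA subunits, which carry the adrenergic signal, Prkaca stood at 237 TPM ± 7.25 and the regulatory Prkar2b at 165 ± 16.8.

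**Figure D3:**
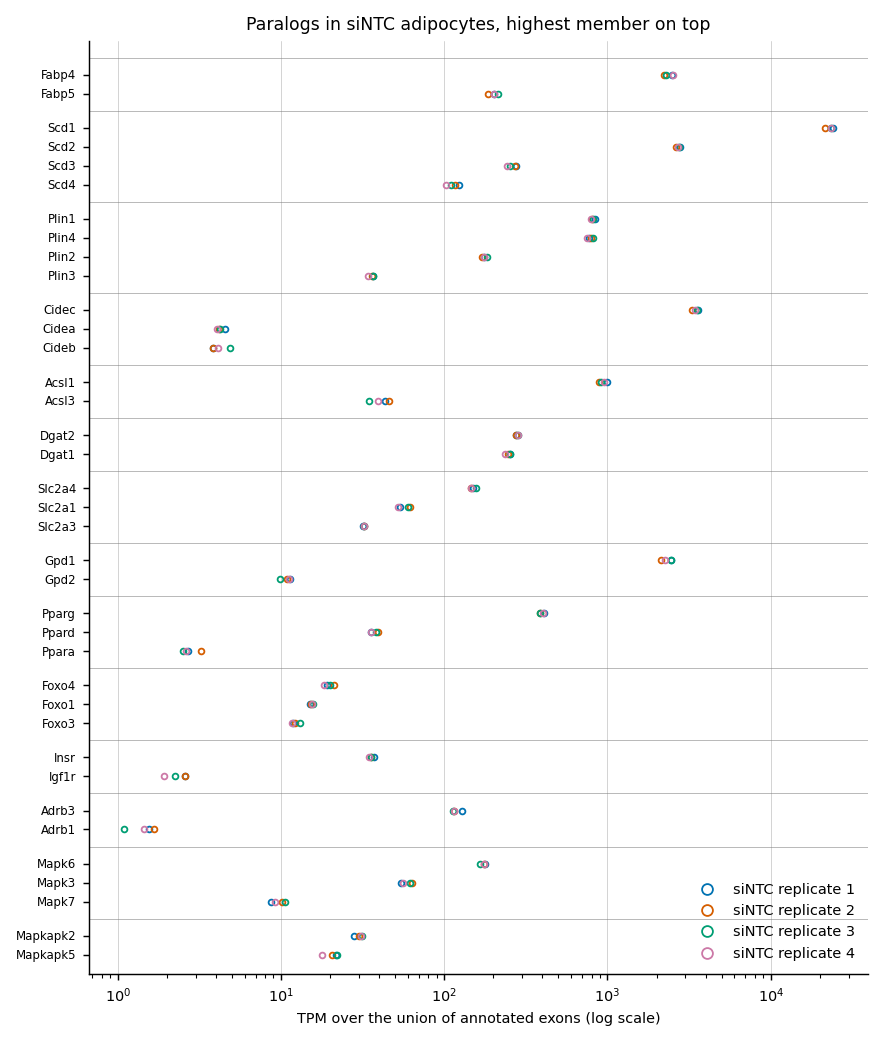
TPM over annotated exons (log scale) of the paralogs described above, with 1 open circle for each of the 4 siNTC libraries and the families separated by lines. Leaders such as Scd1, Cidec, Gpd1 and Adrb3 lie far above their paralogs, while Plin1 and Plin4 coincide.

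Part of the table counted the same sequence or the same stretch of genome in more than 1 gene. Of the 30 genes of highest CPM, 11 were nuclear genes such as the markers above and 8 belonged to the mitochondrial genome. A further 4 were nuclear copies of mitochondrial genes, 2 lay in the rRNA locus, and in 3 (Gm15581, Myo3a and Gm20388) genes inside the span equaled 99.6% to 105.8% of the count. Of the remaining 2, 1 overlapped Gpd1 and 1 was the long noncoding RNA Malat1. Scd2, Acsl1, Pcx and Malat1 also held other genes, which equaled 4.14%, 0.368%, 0.923% and 12.6% of their counts. The copies lie on chromosome 1 in a stretch of nuclear DNA that once came from mitochondria. Gm10925 copies mt-Atp6, which encodes subunit a of ATP synthase, without a difference over its whole length of 678 bases. The first 120 bases of both, which show that no read from this stretch can be assigned to either by sequence, are given here 5′ to 3′ from GENCODE M21. That of mt-Atp6 lies at chrM:7927-8046 on the plus strand and that of Gm10925 at chr1:24614532-24614651 on the minus strand of mm10.
mt-Atp6: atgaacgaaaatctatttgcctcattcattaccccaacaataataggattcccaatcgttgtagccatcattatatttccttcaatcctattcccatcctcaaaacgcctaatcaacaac
Gm10925: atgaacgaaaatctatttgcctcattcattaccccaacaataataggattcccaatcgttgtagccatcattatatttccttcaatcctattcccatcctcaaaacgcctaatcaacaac

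The counts of the pair were nearly equal in every library. mt-Atp6 had 41299, 39535, 37530 and 39488 counts and Gm10925 had 41321, 39444, 37669 and 39351, a ratio of 0.997 to 1.00 over the libraries. mt-Co2 and its copy Gm28661 also agreed in every library (0.991 to 1.01), as did mt-Co3 and Gm28437 (0.992 to 1.02) and mt-Nd4l and Gm10222 (0.959 to 1.03), and these copies had no differing base either. The 9 nuclear copies that share at least 25% of their 50-base stretches with a mitochondrial gene held 1.98% ± 0.0797 of the counts, beside 5.91% ± 0.251 for the mitochondrial genome itself. How reads with several equal matches were assigned is not given in the sources used here.

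Other copies did not have equal counts. Gm28439 had 0.467 to 0.505 of the counts of mt-Nd4, but it is 876 bases long against 1378 for mt-Nd4. Counts over the whole of both genes are therefore not a like comparison in that pair. Gm28438 had 1.15 to 1.22 times the counts of mt-Nd3. Gm13340 on chromosome 2 matches mt-Co1, which encodes subunit 1 of cytochrome oxidase, with 37 differences over 1545 bases, and had 0.0975 to 0.101 of its counts. A stretch of 120 bases with 6 differences, in capitals, shows how close the copy is. It lies at chrM:6501-6620 on the plus strand and at chr2:22588355-22588474 on the minus strand.
mt-Co1: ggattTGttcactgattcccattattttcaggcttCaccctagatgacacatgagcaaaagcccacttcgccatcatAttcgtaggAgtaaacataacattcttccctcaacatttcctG
Gm13340: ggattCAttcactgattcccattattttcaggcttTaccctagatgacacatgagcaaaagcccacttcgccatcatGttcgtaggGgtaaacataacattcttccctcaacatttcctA

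Processed pseudogenes, which are copies of spliced mRNAs without introns, took part in the same way. The 2627 processed pseudogenes of the table held 5.67% ± 0.0898 of the counts. The 2937 pseudogenes of all classes, which include the nuclear copies of mitochondrial genes, held 8.24% ± 0.137, and 107 of them shared every 50-base stretch with protein-coding genes. The glycolytic gene Gapdh, often used as a reference gene, stood at only 157 CPM ± 17.1 (rank 974), while 23 listed pseudogenes that share at least 50% of their stretches with it summed to 2416 CPM ± 194. Gapdh and these copies together came to 2573 CPM, a level that would rank 31st. If reads with several matches were counted at each match, this sum and the sums over copies below hold the same read more than 1 time. The sum is therefore no estimate of the level of Gapdh. The most abundant copy, Gm13394 on chromosome 2 (338 CPM), differs from the Gapdh mRNA in 1 of 1000 bases. The 80 bases around the junction of exons 5 and 6 of Gapdh-203, with the bases on both sides of the junction in capitals, run through in the copy at chr2:28933820-28933899 (minus strand), whereas in Gapdh an intron of 84 bases divides them.
Gapdh: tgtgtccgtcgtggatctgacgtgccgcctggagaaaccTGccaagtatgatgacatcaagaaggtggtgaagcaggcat
Gm13394: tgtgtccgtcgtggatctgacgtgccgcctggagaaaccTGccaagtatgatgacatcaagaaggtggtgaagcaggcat

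In some other housekeeping genes the copies also exceeded the gene. Rps2, a protein of the small ribosomal subunit, stood at 23.5 CPM ± 1.46 and its 9 copies summed to 549 CPM ± 24.9. Pgk1, of glycolysis, stood at 269 CPM ± 16.1 and its 2 copies at 707 ± 51.3. Hspa8, a chaperone, stood at 370.3 CPM ± 18.4 and its 2 copies at 747 ± 34.5. In others the gene exceeded its copy, as in Pgam1, of glycolysis (445 against 253 CPM), and Ubb, which encodes ubiquitin (397 against 252 CPM). The 79 cytosolic ribosomal protein genes held 0.625% ± 0.0269 of the counts, less than the 163 copies of them, which held 0.974% ± 0.0396. The level of such a gene and of its copies cannot be told apart in these counts, and ranks of ribosomal protein and glycolysis genes are affected.

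Genes that lie inside another gene's span showed a second kind of sharing. In 1669 pairs an inner gene lay wholly within the start and end of an outer gene without a shared exon base. The outer gene had at least as many counts as the inner one in all 4 libraries in 1668 of them, including 990 of 990 pairs on opposite strands. Cav1 and Cav2, of the caveolae, lie in Gm15581. They had 23992, 22180, 23361 and 25312 counts and 7589, 7802, 5633 and 7344 counts, and these made up 99.8% of the count of Gm15581 (31641, 30044, 29036 and 32715). Likewise 99.6% of the count of Myo3a, a myosin gene known from the inner ear, equals the sum of the genes inside it, mostly Gm13340. The count of Gm20388, whose span of 4434882 bases holds 73 genes, was 2623 CPM.

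Genes that hold another gene whole, with or without a shared exon base, numbered 2059 and held 19.8% ± 0.392 of the counts, and in 821 of them genes inside equaled at least 50% of the count. The spans of 9710 genes overlapped no other gene of the table, and these held 51.7% ± 0.314. A level of an outer gene cannot be told apart from those of the genes inside it. The sum of gene counts is also no count of reads, since a read can stand in it more than one time.

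**Figure D4:**
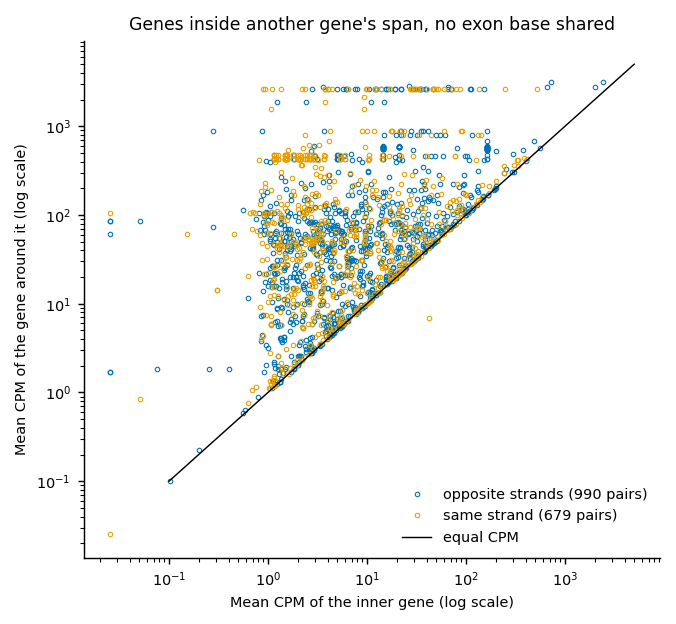
Mean CPM of the outer gene against mean CPM of the inner gene (both log scales) for 1669 pairs without a shared exon base, by strand, with a line of equal CPM. The points lie on or above the line with 1 exception, Gm14494 inside Efcab8, at 42.4 against 6.83 CPM.

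The spread between the libraries was small for most genes. Among the 4091 genes of at least 50 CPM the median CV was 5.46%, with quartiles of 3.82% and 7.48%. The common biological coefficient of variation estimated by edgeR was 6.83%. Of 17565 genes with a mean of at least 10 counts, 2396 (13.6%) varied by more than counting error (chi-square index with 3 degrees of freedom, Benjamini-Hochberg adjusted p under 0.05). This count rests on 2 libraries: it was 1485 without replicate 2 and 1053 without replicate 3. The share rose with level, from 26.2% at 50 to 100 CPM to 97.2% at 1000 CPM or more, while the median CV of these classes was 5.06% to 5.78%. Counting error alone gives a CV of 3.87% in the lowest of these classes and 0.670% in the highest. Of the adipocyte list 18 of 23 genes were called and of the 5 markers 4, all but Plin1. Mapk6 was called, whereas Mapkapk5 and Foxo1 were not.

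The genes of largest spread shared an order of libraries. CT010467.1, a ribosomal RNA gene on chromosome 17, stood at 1424, 6529, 2995 and 4750 CPM in replicates 1 to 4. The overlapping Gm42418 stood at 1068, 4731, 2175 and 3388, and AY036118 inside it at 787, 3855, 1730 and 2699. In all 3, replicate 2 was highest and replicate 1 lowest. Ribosomal RNA has no poly(A) tail and is mostly lost in poly(A) selection. The counts of these 3 genes summed to 0.328%, 1.51%, 0.690% and 1.08% of all counts, but they lie within each other's spans, so the sum can hold the same read more than one time.

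Of 31 genes with a CV above 20% among those of at least 50 CPM, 25 had this same order (2, 4, 3, 1), and so did all 20 with a CV above 40%. In all 4091 genes the order occurred in 92 (2.25%). These numbers include CT010467.1, which sets the order, and Gm42418 and AY036118, which overlap it. They also include outer genes together with genes inside them, so they are not numbers of separate genes. The kinase gene Cdk8 stood at 178, 681, 344 and 580 CPM, Lars2, a mitochondrial leucyl-tRNA synthetase, at 195, 612, 338 and 462, and Jarid2, a cofactor of a histone methyltransferase, at 149, 438, 230 and 366. Filip1l stood at 212, 897, 445 and 703 CPM, and Cmss1, in whose span it lies, at 216, 902, 451 and 708. Within Zc3h7a (228, 763, 412 and 674 CPM) lies Gm23935, whose count equals 39.1% of it. No annotated transcript of a gene outside the locus shared a stretch of 30 bases with the 3 genes of the locus. Those 3 genes lie within a span of only 2475 bases. Introns, and ribosomal RNA sequence outside those 3 genes, were not searched. Whether reads of ribosomal RNA were counted in the genes of this library order was not tested.

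Of the 6 genes with a CV above 20% in another order, mt-Nd6, on the other strand of the mitochondrial genome, was high in replicate 1 (1358 against 904 to 962 CPM). mt-Nd5, which overlaps it, was high in the same library (4582 against 3642 to 3790 CPM). Trim30a stood at 136, 121, 89.2 and 156 CPM, and Smc3, a cohesin subunit, had 507, 623, 372 and 485 counts. At the other end, Gm17106 (CV 0.186%), the DNA repair gene Xpc (0.269%), Prepl (0.372%), Abcg1, a sterol exporter (0.407%), and Sparcl1 (0.422%) had the smallest spread of the 4091 genes.

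**Figure D5:**
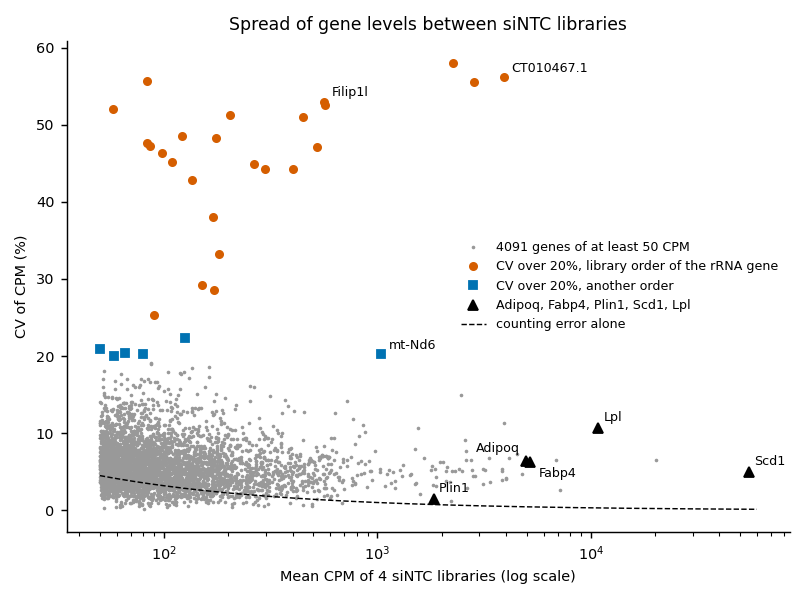
CV of CPM over the 4 siNTC libraries against mean CPM (log scale) for the 4091 genes of at least 50 CPM, with the 31 genes of a CV above 20% colored by whether their libraries have the order of CT010467.1, and the 5 markers as triangles. The dashed line is counting error alone; Plin1 at 1.48% lies near it and Lpl at 10.6% well above.

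Replicate 3 had the most genes that stood low, with 198 genes of at least 50 CPM at more than 0.3 below the median of the other 3 libraries on the log2 scale and 5 above it. Replicate 2 had 84 such genes above and 15 below. The largest mean chi-square per gene was that of replicates 1 and 2 (8.30). The pairs with replicate 3 had 3.56 to 6.97. These means include the overlapping genes of the rRNA locus, which differed most between replicates 1 and 2 (CT010467.1 at 1424 and 6529 CPM). They therefore cannot say whether replicate 3 stood apart in the other genes. The deviation of replicate 3 ran with base composition: across 4087 genes its correlation with the GC content of the longest transcript was 0.512 (a description, since genes are not independent replicates), against -0.172 to -0.124 for the other 3. The latter values are not independent of replicate 3, which is part of the median they are taken against. Correlations with log2 transcript length were 0.151, 0.267, -0.215 and -0.243 in replicates 1 to 4. Among the genes of lowest GC content, up to 46.9%, 973 of 1363 were higher in replicate 2 than in replicate 3, with a median log2 ratio of 0.13. Among those of highest GC content, from 52.8%, 355 of 1362 were, with a median of -0.07. The part of base composition or transcript length in the spread of single genes was not tested.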

How the data were processed

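RNA sequencing covered 8 libraries, of which the 4 siNTC libraries were used. The authors deposited raw counts per gene, and the submitters' processing notes name bcl2fastq, FastQC, Bowtie2, edgeR and the mm10 build. The annotation, the counting program, its strand setting and its treatment of reads with several matches are not given in the sources used here. A second deposited table holds the authors' own comparison (fold changes and p-values) and was not used.

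CPM is the count over the sum of gene counts of the library, times 1000000. No pseudocount was used except 0.5 CPM for log2 values. TPM used the union of exons in GENCODE M21, in which 18050 of 18088 gene IDs were found; 452 IDs had no symbol in the table. Spread was tested with a chi-square index of the 4 counts against library totals, and dispersion was estimated with edgeR 4.0.16 in R 4.3.3 without covariates; other steps used Python 3.11.15 and scipy 1.17.1. The chi-square index and the dispersion estimate were also run on simulated counts. Those counts varied independently from gene to gene, unlike the library order shared by genes described above. Copies were found by 50-base stretches shared between annotated transcripts. Total counts were 9854522 to 9920350 per library, and intervals from counting cover counting error only.

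The genes named are the 5 markers, the 30 most abundant genes by CPM and by TPM, all members of the paralog families, up to 4 of the highest and 2 of the lowest members of each list, the 10 genes of highest and of lowest CV, the 5 that deviate most in each library, the 10 most abundant of each noncoding or pseudogene class, and Mapk6, Mapkapk5, Foxo1 and Pnpla2. Other genes, including hosts of inner genes, parents of copies and further list members, were chosen after their values were seen. The libraries, lists and tests were chosen with earlier results of these data known. Alternatives were TMM factors and DESeq2 1.42.0 size factors, other length measures, other filters, and leaving out each library. Subtracting counts of inner genes, the longest protein-coding transcript and genes without overlap were added after seeing the data. Results on some genes are not reported here.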

Additional observations from a re-analysis of the deposited data

Results flagged for a closer look

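Of 171 values examined in the 4 libraries, 8 had a single library whose gap to the nearest of the others, as a share of the whole range, exceeded Dixon's 95% critical value. Chance flags about 1 in 20 such groups, and 8 of 171 is about that share, so these values are descriptions only. Replicate 2 was the outlying library in 4 of the 8, and these are not independent. Scd1 was at 50856 CPM there against 55981.5 to 56456 in the others, and with it the share of the most abundant gene (5.09% against 5.60% to 5.65%) and of the fatty acid synthesis list (6.29% against 6.86% to 6.94%) were lower. Scd2 was at 6919.55 CPM in replicate 2 against 7286 to 7304.

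In replicate 1, mt-Nd5 was at 4582 CPM against 3642 to 3790, and Adrb3 at 207 CPM against 186 to 189. In replicate 3, Rxra, the partner receptor of PPARγ, was at 207 CPM against 175 to 180, and the collagen list at 1.13% of the counts against 1.04% to 1.05%.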

How the results depend on the processing

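With TPM in place of CPM the 10 most abundant genes held 14.9% and the 100 most abundant 37.5%, 327 genes held 50%, and the adipocyte list held 5.36%. Among nuclear protein-coding genes only, the 100 most abundant held 25.5%. With counts of inner genes subtracted, the shares were 13.4% and 29.1%, and 10.8% for the adipocyte list. Without a filter the median CV was 8.996%, and at a mean of at least 100 counts 6.69%. Among genes that overlap no other, 1227 varied beyond counting error, as fewer genes were tested. Leaving out each library in turn gave a median CV of 4.34% to 5.87%, 1053 to 2396 genes beyond counting error, and a common BCV of 6.26% to 7.62%. The log2 TPM ratio Dgat2 to Dgat1 was 0.17 over the union of exons, -0.0766 over the longest transcript and -0.0766 over the longest protein-coding transcript. Of 37 log2 ratios between the first members of a family, the longest transcript moved another 22 and the longest protein-coding transcript another 24. TMM and DESeq2 size factors were 0.990 to 1.006 times the library totals and were centered on them. They could therefore hardly move a mean over the 4 libraries, and moved none of the 130 named levels by more than 1 SD. Subtracting inner genes, which makes the library totals smaller, moved 98 of the 130. All 37 families kept their leader when any library was left out. List shares were held against 1 SD of the 4 libraries. Leaving out 1 of 4 libraries cannot move a mean that far, so this comparison says nothing about them. No paired analysis was possible because no groups were compared.

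Depth limits single genes: below 10 CPM a library holds under 100 counts of a gene. Lengths limit TPM, copies limit many genes, housekeeping and mitochondrial ones included, and overlaps limit outer genes. Genes removed before deposit are not analysed here.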

Other observations

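Hox genes, which record the body position a cell line came from, were not discussed above and were chosen after their values were seen. The table held 22 of them. Hoxd3 (63.7 CPM ± 0.327, SD, n = 4), Hoxa3 (56.7 ± 2.36), Hoxd8 (40.9 ± 2.85), Hoxa7 (40.8 ± 1.01) and Hoxd4 (31.0 ± 0.413) were the highest, and Hoxb13 stood at 17.9 ± 2.13. The remaining 16 were at 10.3 CPM or less. Hoxd3 and Hoxa3 hold other genes within their spans, so their levels cannot be told apart from those of their neighbors.

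Among 211 solute carriers, Slc35e3 had the highest count (1208 CPM ± 34.3), followed by the mitochondrial dicarboxylate carrier Slc25a10 (693 ± 27.1) and the glutamate and neutral amino acid carriers Slc1a3 (578 ± 11.3) and Slc1a5 (576 ± 24.1). The iron store gene Fth1 stood at 2566 CPM ± 232. In the cholesterol list, Insig1, which holds back sterol synthesis, was the highest (494 CPM ± 20.7), above Hmgcs1 (406 ± 52.4).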
